A study of Mus musculus with 26 samples.

Results

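Nodal and activin are secreted signalling proteins of the TGF-beta family. Expression of 10 genes that carry, block or report this signal was compared between wild-type (WT) mouse embryonic stem (ES) cells and ES cells without ZFP57, a KRAB zinc finger protein that binds a methylated DNA motif at imprinted and other regions. The 10 genes, of the 24409 listed with an expression value, were the ligand *Nodal*, the activin subunit genes *Inhba* and *Inhbb*, the secreted antagonists *Lefty1*, *Lefty2* and *Fst*, the co-receptor gene *Tdgf1*, the receptor gene *Acvr2b* and the intracellular inhibitors *Smad7* and *Skil*. They were chosen by symbol because earlier results of the same WT and KO libraries had shown several of them to differ, with *Fst* among the genes with the largest rise. Their differences between the genotypes are therefore given as descriptions, without p-values, and the count of members past the test's threshold is given beside the share of all genes, with nothing read from it.

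RNA was sequenced from 3 WT and 2 ZFP57 KO libraries, 5 of the 26 samples of the series. All 5 came from male ES cells of the C57BL/6J strain, the KO libraries being labelled as zygotic ZFP57 KO. The lines were derived from inner cell masses of embryos collected as morulae at E2.5. They were kept to at most 15 passages with LIF and 2i, a pair of inhibitors that block ERK signalling and the GSK3 kinase. WT and KO cells were matched for passage. The mutation was present from the zygote onwards, so that effects in the embryo, during derivation and in culture cannot be told apart, and no line with ZFP57 restored was used here. The labels number the libraries as ESC1 to ESC3 without stating which embryo each came from, and p-values measure the spread between these libraries only. Expression was in FPKM, fragments scaled to the length of the transcript and the size of the library, which allows comparison of levels between genes.

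Nodal binds a complex of activin type I and type II receptors together with a co-receptor of the EGF-CFC family, and activin binds the same type I and type II receptors without a co-receptor. The activated receptors phosphorylate SMAD2 and SMAD3, which enter the nucleus with SMAD4 and act at target genes with partners such as FOXH1. Several targets feed back on the signal: LEFTY1 and LEFTY2 block Nodal outside the cell, SMAD7 blocks the receptors from inside, and SKIL (also called SnoN) holds SMAD complexes in a repressed state. Follistatin, the product of *Fst*, binds activins and prevents their contact with receptors. In the early embryo the pathway is known for its part in mesoderm and endoderm formation and left-right asymmetry, and mouse ES cells produce both the ligand and the antagonists.

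The libraries were similar in depth and read length. *Zfp57* itself was measured at 75.9, 72.3 and 70.6 FPKM in WT libraries, against 19.0 and 21.6 FPKM in KO libraries, a difference of −1.84 on the log2 scale (SE 0.06, adjusted p = 2.34e-04). A value per gene does not separate the deleted exons from the remaining ones. Steps between the low values of microRNA hairpin genes showed that 1 fragment on 1 kb of transcript was worth 0.0171 to 0.0198 FPKM, so the depths of the libraries were close to each other. Correlations of log2 values were 0.987 to 0.988 within a genotype and 0.956 to 0.969 between genotypes. ES cell markers were present throughout. The summed level of 7 pluripotency genes was 642 to 661 FPKM in WT and 724 to 783 FPKM in KO cells, with 4 of the 7 higher in KO cells. Both KO libraries of *Nanog* were below all WT libraries (181 and 191 against 194 to 204 FPKM), without passing the test. The summed level of 5 primitive endoderm markers was 0.710 to 0.850 FPKM in WT and 1.04 to 1.38 FPKM in KO cells, with *Sox7* the only marker of the list past the test. Without *Sox7* the sum of the other 4 was 0.6 to 0.76 FPKM in WT and 0.48 to 0.56 FPKM in KO cells. The summed level of 4 formative or primed markers was 19.2 to 22.4 FPKM in WT and 15.2 to 19.8 FPKM in KO cells, with *Fgf5* higher and *Pou3f1* lower. Sums of 4 trophoblast markers (0.390 to 0.630 against 0.73 to 0.75 FPKM) and of 7 fibroblast markers (0.340 to 0.360 against 0.160 to 0.330 FPKM) were low in both genotypes, and the fibroblast genes *Col3a1*, *Dcn* and *Lum* were listed at 0 in all 5 libraries. The part of these markers in the differences between the genotypes was not tested. In bulk RNA, fewer cells that express a gene and less RNA per cell cannot be told apart.

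Among both the secreted antagonists and the intracellular inhibitors, some genes were higher and others lower in KO cells, whereas the ligand *Nodal* differed little. *Fst* was 9.50 times as high in KO as in WT cells, *Inhbb* 3.38 times and *Smad7* 1.95 times, while *Lefty1*, *Lefty2* and *Skil* stood at 0.328, 0.423 and 0.409 of their WT means. *Nodal* stood at 0.819 of its WT mean, *Tdgf1* and *Acvr2b* overlapped between the genotypes, and *Inhba* was listed at 0 in every library. *Inhba* was the member that did not pass the filter of a mean of 0.1 FPKM. Of the 9 members fitted, 7 were past an adjusted p of 0.05 by limma, 3 higher and 4 lower in KO cells. Among all 14612 genes fitted the same threshold was passed by 41.1%, with 18.8% higher and 22.3% lower. With upper-quartile scaling 2130 genes were higher and 3792 lower of 14605 fitted. Genes of chromosome 11 had a median log2 difference of −0.471 (1224 fitted), and those of chromosome 6 of 0.170 (679 fitted). With the median of each chromosome subtracted, 2632 of 14612 genes were higher and 2662 lower. The cause of these shifts was not tested. In the same 7 members the libraries of the genotypes did not overlap, as was the case for 63.4% of all genes fitted, with both KO libraries above all WT libraries for 30.3% and below them for 33.1%. Because the members were chosen on this contrast, nothing is read from their count. The median log2 difference of the 9 members was −0.12 and their median absolute difference 1.27, against −0.01 and 0.25 over all genes fitted. These medians rest on the same choice of members, and nothing is read from them either.

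**Figure D1:**
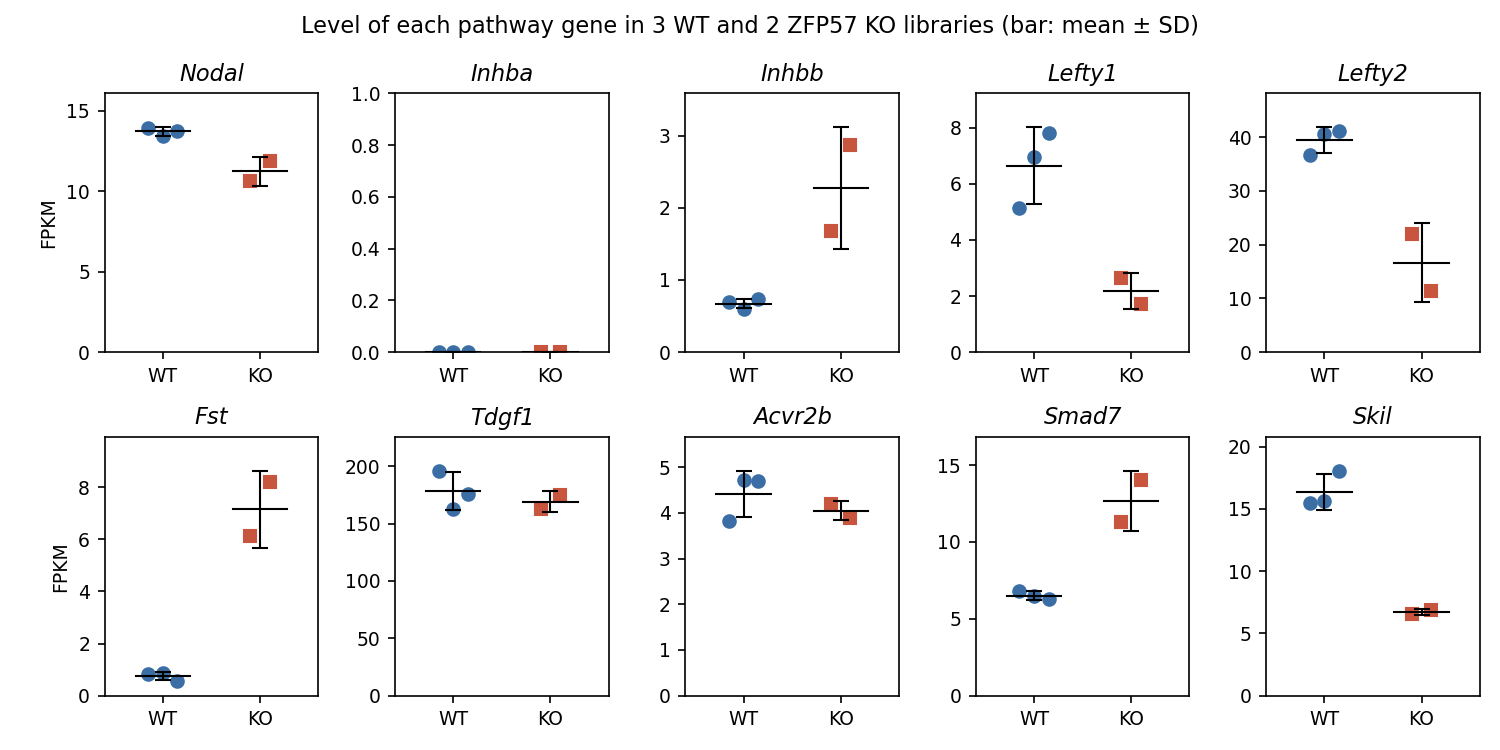
Expression of the 10 genes in FPKM (y axes, each starting at 0) in the 3 WT and 2 ZFP57 KO libraries. Points are single libraries, horizontal lines are group means and vertical bars are 1 SD to either side. *Fst* stood at 0.580 to 0.860 FPKM in WT and 6.11 to 8.20 FPKM in KO libraries, while the libraries of *Tdgf1* and *Acvr2b* overlapped.

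*Nodal* encodes the ligand after which the pathway is named and lies at chr10:61417972-61425338 on the plus strand of GRCm38.p6, with 3 exons. Its levels were 13.9, 13.4 and 13.8 FPKM in WT and 10.6 and 11.9 FPKM in KO libraries. The KO libraries were both below the lowest WT library, and the WT libraries lay closer together than the KO libraries. Means were 13.7 ± 0.260 (SD, n = 3) and 11.2 ± 0.884 (SD, n = 2) FPKM, a log2 difference of −0.29 (SE 0.06), the smallest among the 7 members whose libraries did not overlap between the genotypes.

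*Inhbb* encodes the beta B subunit, which forms activin B as a dimer and inhibin B with the alpha subunit. The gene, on the minus strand at chr1:119415463-119422248, was measured at 0.69, 0.6 and 0.73 FPKM in WT libraries and at 1.68 and 2.87 FPKM in KO libraries. Both KO libraries were above all WT libraries, although they differed from each other by more than the whole WT range. The log2 difference was 1.58 (SE 0.23), on group means of 0.673 ± 0.067 and 2.28 ± 0.842 FPKM. It was 0.95 with a pseudocount of 1 FPKM. By the fragment scale inferred from the hairpins these levels stood for about 149 to 161 fragments in WT and 372 to 668 in KO libraries. *Inhba*, the beta A subunit of activin A, at chr13:16004256-16031609, was listed at 0 in all 5 libraries. A level of 0.0093 FPKM would correspond to 3 fragments on its exons, so expression below about that level was not detectable at this depth. *Inha*, the alpha subunit of the inhibins, did not exceed 0.1 FPKM in any library and was not fitted.

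*Fst* encodes follistatin and lies on the minus strand at chr13:114452262-114458989, with 3 annotated mRNAs. It was measured at 0.820, 0.860 and 0.580 FPKM in WT libraries and 6.11 and 8.20 FPKM in KO libraries. Both KO libraries were several times above the highest WT library, and on the log2 scale this separation was the widest of the 10 genes. Means were 0.753 ± 0.151 and 7.16 ± 1.48 FPKM and the log2 difference was 3.09 (SE 0.20). About 84 to 144 fragments in WT and 910 to 1282 in KO libraries stood behind the values. A high rank was set by the choice of *Fst* as one of the genes with the largest rise, and nothing is read from it. The log2 difference ranked 19 of the 14612 genes fitted. Among the 10664 of them with a mean of at least 1 FPKM it ranked 18, between the microRNA gene *Mir540* (3.11) and *6430411K18Rik* (3.06). With a pseudocount of 1 FPKM in place of 0.1 the difference was 2.21, since the WT level is below 1 FPKM.

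*Fst* and *Inhbb* encode an antagonist and a ligand subunit that it can bind, and both were higher in KO cells. The ratio of *Fst* to *Inhbb*, both in FPKM, was 1.19, 1.43 and 0.795 in WT libraries and 3.64 and 2.86 in KO libraries. The ratio was thus above all WT values in both KO libraries. In WT cells the levels of *Fst* and *Inhbb* overlapped, and in KO cells those of *Fst* were above those of *Inhbb*.

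*Lefty1* and *Lefty2* encode closely related secreted antagonists of Nodal, and both are established targets of the signal that they block. They are neighbours on the plus strand of chromosome 1, *Lefty2* at chr1:180893108-180899107 and *Lefty1* at chr1:180935022-180938401. Their coding sequences are each 1107 bp long and match at 1017 positions (91.9%), so that reads from one can align to the other. A window of 90 bases in the first exon of each holds 27 differences and shows where reads separate the genes. In these sequences, taken from the RefSeq annotation of GRCm38.p6, capitals mark the bases that differ between the genes. The windows lie at chr1:180935144-180935233 for *Lefty1* and chr1:180893218-180893307 for *Lefty2*, both on the plus strand and in coding sequence.
Lefty1, differing window: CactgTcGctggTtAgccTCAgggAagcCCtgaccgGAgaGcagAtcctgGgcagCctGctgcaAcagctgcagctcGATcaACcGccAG
Lefty2, differing window: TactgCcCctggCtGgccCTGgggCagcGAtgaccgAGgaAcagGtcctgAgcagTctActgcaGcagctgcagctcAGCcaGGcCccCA

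*Lefty1* stood at 5.15, 6.97 and 7.83 FPKM in WT libraries and 2.63 and 1.73 FPKM in KO libraries. Both KO libraries were below the lowest WT library. The means were 6.65 ± 1.37 and 2.18 ± 0.636 FPKM, and the log2 difference was −1.57 (SE 0.23).

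*Lefty2* was the second most abundant of the 10 genes in WT cells, with 36.6, 40.5 and 41.1 FPKM, and was measured at 21.9 and 11.4 FPKM in KO libraries. The KO libraries were both below all WT libraries but differed from each other by more than the whole WT range. Means were 39.4 ± 2.44 and 16.7 ± 7.42 FPKM, with a log2 difference of −1.31 (SE 0.25). Without KO 2 the difference was −0.84 and without KO 1 it was −1.78, so its size rests on which KO library is used.

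Reads shared between the *Lefty* genes limit how far each can be judged alone. Stretches of at least 150 bp with at least 95% identity to the other gene cover 36.9% of the *Lefty1* mRNA and 24.2% of the *Lefty2* mRNA, and how the deposited values treat reads that match both was not given in the sources used here. The ratio of *Lefty2* to *Lefty1* was 7.11, 5.81 and 5.25 in WT and 8.33 and 6.60 in KO libraries. The groups overlapped in this ratio. The ratio of *Lefty2* to *Nodal*, antagonist to ligand, was 2.63, 3.02 and 2.99 in WT and 2.07 and 0.964 in KO libraries, with both KO libraries below the WT range.

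**Figure D2:**
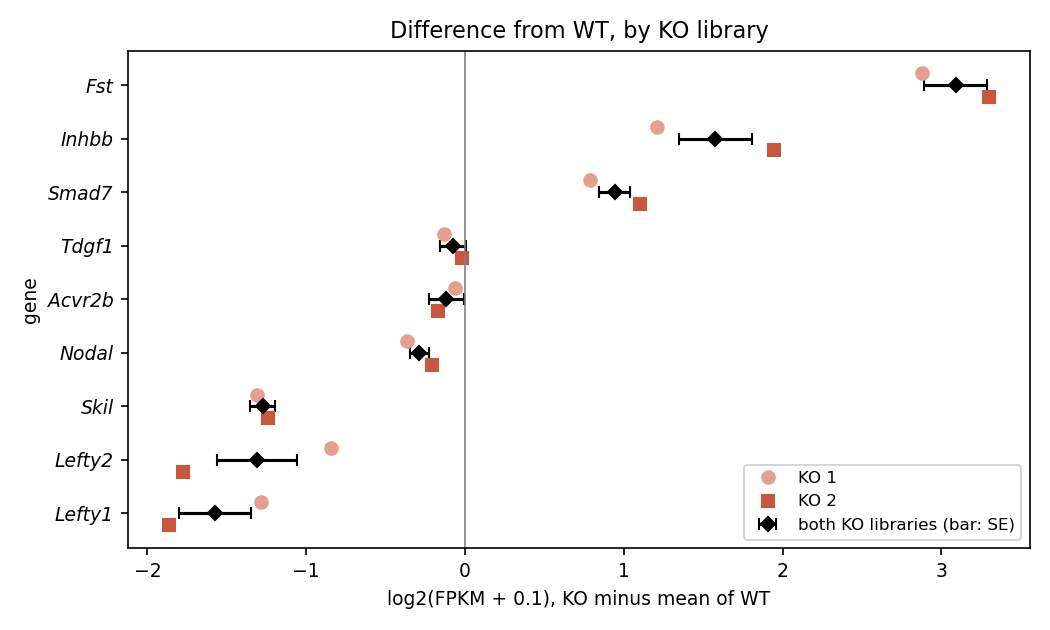
Log2(FPKM + 0.1) difference from the WT mean (x axis) for KO 1 (circles) and KO 2 (squares), and the fitted KO minus WT difference (diamonds) with its standard error (bars), for the 9 members that passed the filter, ordered by size. *Fst* lies at 3.09 and *Lefty1* at −1.57, and the points of *Lefty2* lie far apart at −0.84 and −1.78.

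*Tdgf1* encodes Cripto, the co-receptor that Nodal needs, and was the most abundant of the 10 genes. It lies on the minus strand at chr9:110939608-110946158. Levels were 196, 163 and 176 FPKM in WT and 163 and 175 FPKM in KO libraries, so the genotypes overlapped. The log2 difference was −0.08 (SE 0.08). A processed copy elsewhere in the genome, *Tdgf1-ps1*, matches 51.6% of the mRNA at 96.7% identity in its best stretch, and it has no expression value of its own in the data.

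*Acvr2b*, at chr9:119401583-119442148 on the plus strand, encodes an activin type II receptor. It was measured at 3.83, 4.73 and 4.69 FPKM in WT and 4.2 and 3.9 FPKM in KO libraries. Both KO values lay within the WT range, and the log2 difference was −0.12 (SE 0.11).

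*Smad7* encodes an inhibitory SMAD that binds activated type I receptors and recruits ubiquitin ligases to them, and it is induced by TGF-beta family signals. The gene spans chr18:75367365-75395935 on the plus strand. Levels were 6.80, 6.47 and 6.27 FPKM in WT and 11.3 and 14.1 FPKM in KO libraries. Both KO libraries were well above a narrow WT range. Means were 6.51 ± 0.268 and 12.7 ± 1.96 FPKM and the log2 difference was 0.94 (SE 0.10).

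*Skil* encodes SnoN, a nuclear corepressor of SMAD complexes, which is degraded when the signal arrives and then re-expressed as a target. It spans chr3:31095058-31122923 on the plus strand, with 3 annotated mRNAs. Levels were 15.5, 15.6 and 18.1 FPKM in WT and 6.54 and 6.87 FPKM in KO libraries. The KO libraries were close to each other and both far below the WT libraries. Means were 16.4 ± 1.45 and 6.71 ± 0.233 FPKM and the log2 difference was −1.27 (SE 0.08). The inhibitors thus differed in opposite directions: the ratio of *Skil* to *Smad7* was 2.27, 2.42 and 2.88 in WT and 0.579 and 0.489 in KO libraries, with no overlap between the genotypes.

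*Fst*, *Lefty1*, *Smad7* and *Inhba* each overlap an annotated gene on the opposite strand that has no value of its own in the data, and whether strand was used in counting was not given in the sources used here. Reads of such partners cannot be told apart from those of the named gene.

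The order of the 10 genes by level differed between the genotypes. In WT cells the order from high to low was *Tdgf1*, *Lefty2*, *Skil*, *Nodal*, *Lefty1*, *Smad7*, *Acvr2b*, *Fst*, *Inhbb* and *Inhba*. Neighbours whose WT libraries overlapped were *Lefty1* and *Smad7*, and *Fst* and *Inhbb*. In KO cells the order was *Tdgf1*, *Lefty2*, *Smad7*, *Nodal*, *Fst*, *Skil*, *Acvr2b*, *Inhbb*, *Lefty1* and *Inhba*. Here the libraries of *Lefty2* and *Smad7*, of *Smad7* and *Nodal*, of *Fst* and *Skil*, and of *Inhbb* and *Lefty1* overlapped. The inhibitors exchanged places, since *Skil* was above *Smad7* in every WT library and below it in both KO libraries.

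The KO libraries were not equally far from WT. KO 2 was farther from the WT mean than KO 1 for 6 of the 9 members fitted, for example *Fst* (3.30 against 2.88 on the log2 scale), *Inhbb* (1.95 against 1.21) and *Lefty1* (−1.86 against −1.28). *Nodal* (−0.21 against −0.37) and *Skil* (−1.24 against −1.31) were among those for which KO 1 was farther. Over all genes fitted KO 2 was farther for 55.5%. Among the genes past the threshold it was farther for 60.9%, and among the 7 members past it for 5.

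The expression profiles nearest to that of *Fst* were taken over all 14612 genes as the smallest Euclidean distance between log2 values centred on each gene's mean over the 5 libraries. They belonged to *Etv4* (distance 0.26), *Mir337* (0.27), *Chrna4* (0.39), *Tbx18* (0.42) and *Mirg* (0.49). Their log2 differences between KO and WT cells were 3.12, 2.94, 2.90, 2.81 and 2.94. With 5 libraries in 2 groups, a small distance mainly says that the difference between the groups was of similar size.

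The other genes of the pathway were listed by role, as other ligands, receptors, extracellular regulators, intracellular signalling genes and genes of mesendoderm that respond to the signal. Of 56 such genes 43 were fitted, and by limma with Benjamini-Hochberg adjustment 12 rose, 6 fell and 25 did not pass the test (41.9% called, against 41.1% of all genes). The median of the 43 was 0.04, against −0.01 over all genes. With upper-quartile scaling of the libraries 18 genes were called as well, 9 higher and 9 lower, though not all of them were the genes called without it. With a pseudocount of 1 FPKM in place of 0.1, differences of genes with low levels were smaller, at 0.44 for *Inhbe*, 0.18 for *Tgfb2*, −0.21 for *Ltbp1*, 1.13 for *Eomes* and 0.43 for *T*.

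Among the other ligands 3 of 6 genes fitted rose and none fell, whereas with upper-quartile scaling 2 rose and 1 fell. *Gdf3*, a relative of Nodal that also uses the co-receptor Cripto, rose from 13.8, 15.4 and 15.5 FPKM in WT to 18.3 and 18.2 FPKM in KO libraries (log2 difference 0.30, SE 0.06, adjusted p = 0.0112). Its adjusted p was 0.0527 without KO 1, 0.0542 without KO 2 and 0.161 with the median of each chromosome subtracted. *Inhbe*, a further activin subunit gene, rose from at most 0.170 FPKM in WT to 0.380 and 0.700 FPKM in KO libraries (log2 difference 1.48, adjusted p = 0.0122), and its adjusted p was 0.0699 without KO 2. *Tgfb2* also passed the test, with levels below 1 FPKM in all libraries (log2 difference 0.71, adjusted p = 0.0466). The call of *Tgfb2* was lost without WT 1, WT 2, KO 1 or KO 2 (adjusted p from 0.0762 to 0.184) and with upper-quartile scaling (0.0545). *Inhbe*, *Tgfb2*, *Ltbp1*, *Tgif2*, *Rnf111*, *T*, *Gsc*, *Mixl1*, *Smurf2*, *Trim33*, *Inha*, *Bmp4* and *Id1* were named after their values had been seen. Without KO 2 no ligand of this list passed the test, and without KO 1 a single ligand did.

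Of the 7 receptor genes fitted, *Acvr1b* alone passed the test, whereas with upper-quartile scaling 2 passed, 1 in each direction. *Acvr1b* encodes the type I receptor ALK4, used by both Nodal and activin, and rose from 3.64, 3.09 and 3.14 FPKM in WT to 6.02 and 7.46 FPKM in KO libraries. Both KO libraries were above the highest WT library (log2 difference 1.01, SE 0.12, adjusted p = 0.00156). *Acvr2a*, the other activin type II receptor gene, had a log2 difference of 0.15 (adjusted p = 0.263).

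Of the 8 extracellular regulators fitted, 1 rose and 2 fell. *Fstl1*, a secreted glycoprotein with a follistatin-like domain, rose from 8.80, 8.74 and 7.22 FPKM to 22.4 and 24.2 FPKM (log2 difference 1.49, SE 0.10, adjusted p = 3.82e-04). *Tmeff1*, a transmembrane protein with follistatin modules that binds Cripto, fell by 0.29 on the log2 scale (adjusted p = 0.00993), with an adjusted p of 0.0515 without KO 1. *Ltbp1*, which anchors latent TGF-beta in the matrix, fell by 0.52 (adjusted p = 0.0366) at levels below 1 FPKM, a call that was lost when any 1 library was left out (adjusted p from 0.0599 to 0.115). The proprotein convertase genes *Furin* and *Pcsk6*, whose products cleave the Nodal precursor, had differences of −0.04 (adjusted p = 0.796) and −0.25 (adjusted p = 0.0891). The difference of *Pcsk6* was −0.38 without KO 2 and −0.11 without KO 1. *Cer1*, a Nodal antagonist of the embryo, was listed at 0 in all libraries.

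Of the 17 intracellular genes, all fitted, 5 rose, 4 fell and 8 did not pass the test. The signal transducers *Smad2* and *Smad3* had log2 differences of 0.00 (adjusted p = 0.985) and −0.08 (adjusted p = 0.588). *Foxh1*, the DNA-binding partner of SMAD2 and SMAD3, rose from 8.30, 9.86 and 7.70 FPKM to 14.6 and 13.6 FPKM (log2 difference 0.71, SE 0.11, adjusted p = 0.00347). *Smad4* rose by 0.19 (adjusted p = 0.0394), a call that was lost when any 1 library was left out, with adjusted p from 0.0684 to 0.16. *Pmepa1*, a feedback inhibitor that binds SMAD2 and SMAD3, rose by 0.71 (adjusted p = 0.0281), with adjusted p of 0.0839, 0.0824 and 0.154 without WT 2, WT 3 and KO 2. *Tgif2*, a SMAD corepressor, and *Rnf111*, an E3 ligase that targets SKIL and SMAD7, rose by 0.20 (adjusted p = 0.031) and 0.22 (adjusted p = 0.0092). The call of *Tgif2* was lost when any 1 library was left out (adjusted p from 0.0519 to 0.115) and with upper-quartile scaling (0.0657).

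The 4 intracellular genes that fell were *Ppm1a*, *Nedd4l*, *Trim33* and *Smurf2*. *Ppm1a*, a phosphatase that acts on SMAD2 and SMAD3, fell from 32.1, 35.0 and 35.9 FPKM to 24.5 and 21.7 FPKM (log2 difference −0.57, adjusted p = 0.00194). *Nedd4l*, an E3 ligase for activated SMAD2 and SMAD3, fell by 0.59 (adjusted p = 0.00485), and *Trim33*, an E3 ligase for SMAD4, by 0.29 (adjusted p = 0.00515). *Smurf2*, an E3 ligase that SMAD7 brings to the receptors, fell by 0.52 (adjusted p = 9.48e-04). *Smurf2* lies on chromosome 11, whose genes had a median difference of −0.47, and with the median of each chromosome subtracted its difference was −0.05 (adjusted p = 0.491).

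Of the 5 mesendoderm genes fitted, 2 rose and none fell, whereas without KO 1 there was 1 in each direction. *Eomes*, a T-box factor of the primitive streak, rose from 0.51, 0.6 and 0.38 FPKM to 2.13 and 2.40 FPKM (log2 difference 2.00, SE 0.19, adjusted p = 8.01e-04). *T*, which encodes Brachyury, rose from 0.290, 0.510 and 0.300 FPKM to 1.02 and 0.670 FPKM (log2 difference 1.02, SE 0.27, adjusted p = 0.0266), and its adjusted p was 0.0761, 0.0794 and 0.139 without WT 1, WT 3 and KO 1. *Gsc* had a difference of 0.18 and *Mixl1* of −0.02, neither past the test.

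**Figure D3:**
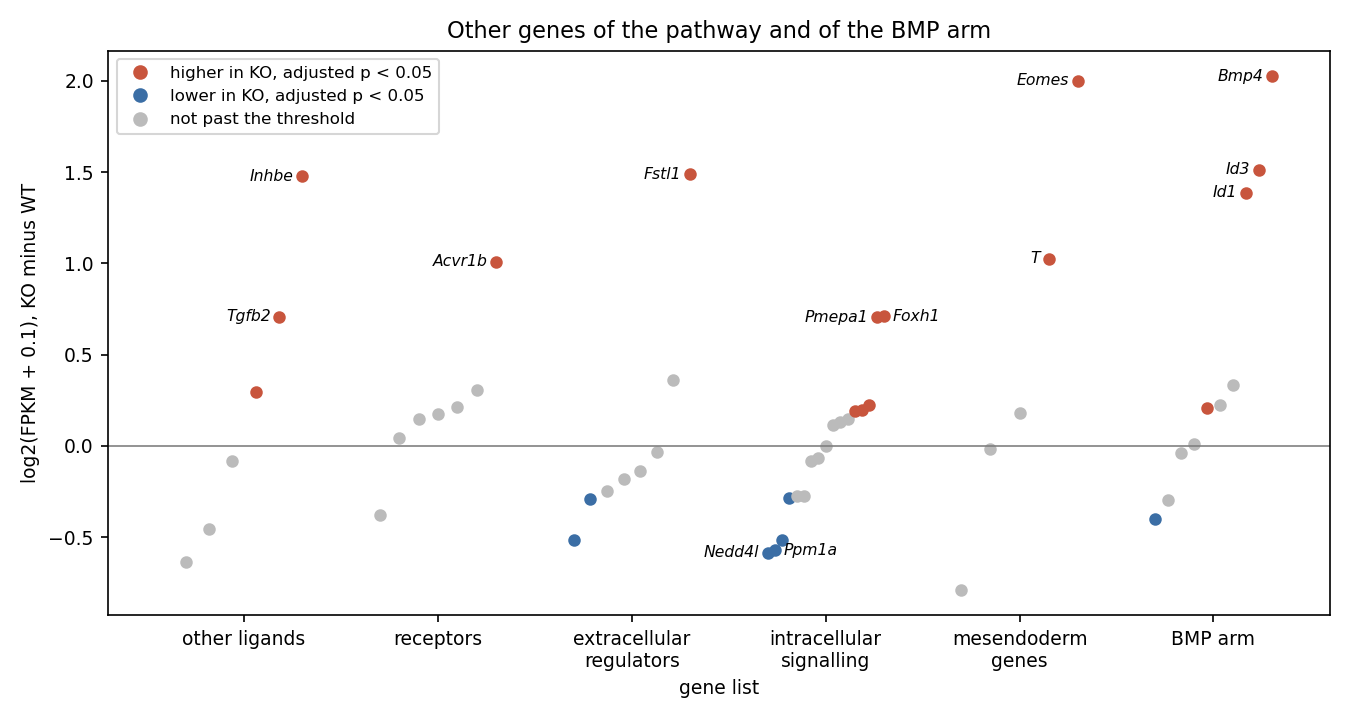
Log2(FPKM + 0.1) difference, KO minus WT, of the other genes of the pathway and of the BMP arm (y axis), by list (x axis). Each point is a gene that passed the filter on low values, red or blue where the adjusted p by limma was below 0.05 and grey otherwise. *Eomes* (2.00), *Bmp4* (2.02), *Fstl1* (1.49) and *Acvr1b* (1.01) are among the labelled genes that rose.

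ZFP57 binding was compared with the positions of the 10 genes. The deposited list of 1423 ZFP57 peaks, each called by the authors in at least 2 of 3 WT ChIP libraries, was used with the gene positions of GRCm38.p6. No member had a peak within 5 kb or within 20 kb of the gene, against 2.07% and 4.25% of the 24289 genes that could be placed. Within 50 kb and within 100 kb, 2 members had a peak, against 8.11% and 14.2% of all genes. These were *Fst*, 28.7 kb from its nearest peak, and *Tdgf1*, 23.4 kb from its nearest peak. The *Lefty* genes lay 276.5 kb (*Lefty2*) and 318.4 kb (*Lefty1*) from the same peak, and the other 6 genes lay from 515.8 kb (*Skil*) to 2246.8 kb (*Inhbb*) from the nearest peak.

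The peaks nearest to *Fst* and *Tdgf1* are shown because no other member had a peak within 100 kb. Both peaks hold the TGCCGC motif of ZFP57. The *Fst* peak, of 254 bp at chr13:114423355-114423608, lies downstream of the gene and in no annotated gene, and holds 2 matches. The *Tdgf1* peak, of 1055 bp at chr9:110969518-110970572, lies upstream of the gene and within *Lrrc2*, where it covers exon 6 of 9 and adjoining intron, and it holds 1 match in the 300 bp printed here (chr9:110970273-110970572). Sequences are from the plus strand of GRCm38.p6 and capitals mark TGCCGC or its reverse complement GCGGCA.
Fst peak: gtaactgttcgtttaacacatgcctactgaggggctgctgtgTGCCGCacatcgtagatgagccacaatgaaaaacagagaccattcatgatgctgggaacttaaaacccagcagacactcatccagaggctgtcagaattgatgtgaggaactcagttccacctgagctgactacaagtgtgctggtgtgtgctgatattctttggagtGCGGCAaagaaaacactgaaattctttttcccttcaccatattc
Tdgf1 peak, stretch: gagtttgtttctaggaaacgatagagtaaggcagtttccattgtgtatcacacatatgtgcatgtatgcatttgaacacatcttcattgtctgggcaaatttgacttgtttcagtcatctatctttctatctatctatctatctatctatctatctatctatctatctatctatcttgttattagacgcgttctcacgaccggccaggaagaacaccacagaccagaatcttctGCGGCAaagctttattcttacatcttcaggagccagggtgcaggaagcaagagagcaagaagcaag

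The motif was present on either strand in 92.0% of all 1423 peaks. The deposited list for hybrid ES cells held 743 peaks, all of them with the same positions as peaks among the 1423. Neither the *Fst* nor the *Tdgf1* peak was among them. No ZFP57 ChIP sample of hybrid cells was listed in the series, and how that list was made was not given. Nothing is therefore read from their absence. *Fst* differed between the genotypes and *Tdgf1* overlapped. Of the other genes next to these peaks, *Ndufs4*, which adjoins *Fst* on the side of its peak, rose by 0.20 (adjusted p = 0.0164), *Mocs2*, on the other side, had a difference of 0.23 (adjusted p = 0.0671), and *Lrrc2* fell by 0.16 (adjusted p = 0.0436). Whether binding at these distances bears on expression was not tested.

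**Figure D4:**
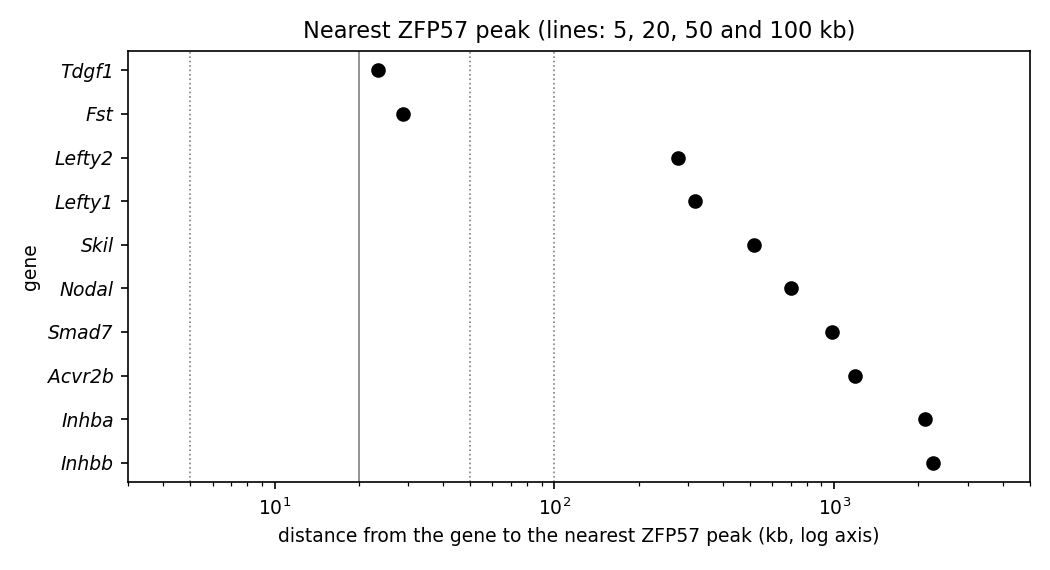
Distance from each of the 10 genes to its nearest ZFP57 peak in kb (x axis, log scale), with the genes in order of distance. Vertical lines mark 5, 20, 50 and 100 kb. *Tdgf1* (23.4 kb) and *Fst* (28.7 kb) are the nearest, and all other members lie more than 200 kb away.

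RefSeq promoters, from 250 bases before to 50 bases after the start site that the promoter table uses, were at hand for *Nodal*, *Inhba*, *Inhbb*, *Tdgf1* and *Acvr2b*. The windows of *Inhba* (chr13:16011601-16011900) and *Acvr2b* (chr9:119401928-119402227) lie inside the gene spans given for these genes, so they do not cover the first annotated base. None of these 5 held TGCCGC on either strand, against 11.6% of all 32851 promoters in the table. The SMAD-binding letters CAGAC were found once each in the *Tdgf1* and *Acvr2b* promoters, against 49.6% of all promoters, and the FOXH1 letters TGTGGATT in none of the 5, against 0.855% of all promoters. The motifs were searched on both strands, and none of them contains another. These matches describe letters in the window only.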

How the data were processed

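RNA-seq libraries of 3 WT and 2 ZFP57 KO ES cell samples and the ZFP57 peak lists were used; the other ChIP-seq samples were not used here. The authors deposited FPKM values per gene, rounded to 2 decimals, and peak positions without a score, for mm10. The submitters' processing notes name FastQC 0.11.5, Trim Galore 0.2.7, BWA 0.6.2, Picard, MACS2 2.1.0 and STAR 2.5.2. The counting tool, annotation and treatment of multi-mapping reads were not given in the sources used here. FPKM are relative to each library's total, so a change in a few abundant genes shifts the others, and they are not read counts.

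Log2(FPKM + 0.1) was compared for the 14612 of 24409 genes whose mean over the 5 libraries reached 0.1 FPKM, between KO and WT cells, in limma 3.58.1 (R 4.3.3) with a trended empirical Bayes fit and Benjamini-Hochberg adjustment over all genes fitted. The threshold was an adjusted p of 0.05. The script was tested on simulated data. This scale understates changes of genes with low values. Library depth was inferred from hairpin genes, in which 95.9 to 98.9% of low values were whole multiples of 1 fragment within a tolerance of 0.1. The 10 members and all gene and marker lists were chosen with earlier results of these data known. Genes named were all members, fixed pathway genes, and up to 4 called genes per list with a mean of at least 1 FPKM and no overlap between groups, ranked by the size of the difference, together with the 5 profiles nearest to that of *Fst* and *Zfp57*. Other genes were named after their values or positions had been seen.

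Of the symbols, 23193 were placed on GRCm38.p6 (the build mm10) by RefSeq symbol and 1096 by synonym, and 120 could not be placed. Promoter sequences were matched by symbol for 5 members. Copies were sought with BLAST 2.17.0. Alternatives were other pseudocounts, other filters, upper-quartile scaling, a replicate block, no trend, chromosome medians subtracted, each library left out in turn, and other windows around peaks. Some items are not reported here.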

Additional observations from a re-analysis of the deposited data

How the results depend on the processing

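The count of members past the threshold was 7 under the alternatives run, each library left out in turn included, except the replicate block, under which it was 6, with *Nodal* no longer past it. As the members were chosen on this contrast, this says nothing of stability. With 1 library left out in turn, 4146 to 4831 of all genes passed (6002 with all libraries) and 12 to 13 of the other pathway genes (18 with all libraries). When a KO library is left out, the lone KO library is assumed to vary like the WT group. The replicate numbers of WT and KO libraries belong to different lines, and the differences between replicates 1 and 2 in WT and KO had a correlation of −0.06 over 14612 genes, so that no pairing was used. With the replicate block 3012 genes passed, and 10 of the other pathway genes, 6 higher and 4 lower. Under the block WT 3 has no KO library of its number and adds nothing to the difference, so that this fit rests on 4 libraries. The number of members with a ZFP57 peak was 0 within 20 kb and 2 within 50 kb or 100 kb.

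The difference of *Smad2*, near 0, turned to −0.054 with upper-quartile scaling and to −0.024 with chromosome medians subtracted. With 1 library left out it ran from −0.026 (without WT 2) to 0.027 (without KO 2), and that of *Furin* from −0.153 (without KO 2) to 0.082 (without KO 1). The cause was not tested. Of 475 values of named genes over the alternatives, 5 changed sign, and 61 of genes outside the 10 lost their call. With 2 KO libraries the spread within KO cells rests on a single difference.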

Other observations

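Genes of the BMP arm, which signals through SMAD1, SMAD5 and SMAD9 and shares the type II receptors and SMAD4 with activin, were listed as well. Of 15 genes 10 were fitted, and 4 rose, 1 fell and 5 did not pass the limma test, so that 50.0% were called, against 41.1% of all genes fitted. Their median log2 difference was 0.22, against −0.01 over all genes fitted. The ligand gene *Bmp4* rose from 0.150, 0.120 and 0.080 FPKM in WT to 0.730 and 0.820 FPKM in KO libraries (log2 difference 2.02, SE 0.21, adjusted p = 0.00107). *Id3*, an inhibitor of basic helix-loop-helix factors and a target of BMP signals, rose from 3.46, 4.22 and 2.82 FPKM to 9.81 and 10.3 FPKM (log2 difference 1.51, SE 0.16, adjusted p = 0.00108), and *Id1* rose by 1.39 (adjusted p = 0.00595). With a pseudocount of 1 FPKM the difference of *Bmp4* was 0.67 and that of *Id1* 0.64. The receptor gene *Bmpr2* fell by 0.40 (adjusted p = 0.00624). *Smad5* rose by 0.21 (adjusted p = 0.038), a call that was lost when any 1 library was left out, with adjusted p from 0.075 to 0.117.

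*Tmem63a*, the gene 3884 bp beyond *Lefty1*, fell by 1.22 on the log2 scale (adjusted p = 0.00121). *Sde2*, a further neighbour, had a difference of 0.06 (adjusted p = 0.412). These neighbours were named after the positions of the *Lefty* genes had been looked up.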
